A study of Mus musculus with 6 samples.

Results

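The cells described here carry the authors' label stylopod chondrocyte progenitors in mouse hindlimb buds at embryonic stage E11.5. They were chosen by that label alone, in the annotation deposited with the Dup and C57BL/6 wild-type hindlimb libraries. The label stood on 299 of the 6944 cells of the pair, in a series of 26486 cells over 6 libraries. With more than 2000 detected genes required, 296 of them were kept, 128 in Dup and 168 in wild type. Each genotype was 1 library, so differences between genotypes are given as values, with intervals that cover counting error only, and no test was run. Every interval below is at 95%.

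Dup is a homozygous tandem duplication on chromosome 19 that, per the study, holds Lbx1, Btrc, Poll, Dpcd and Fbxw4 and leaves out Fgf8. Per the study's general methods, mice were made by aggregation from edited G4 embryonic stem cells, a hybrid of 129 and C57BL/6 strains, and were crossed to C57BL/6. The study's legend for these single-cell data instead places the Dup mutant on a C57BL/6 background. The wild type was C57BL/6, and the labels give strain c57bl6.J, hindlimb and E11.5 for both libraries. Genotype therefore cannot be told apart from library, and residual 129 sequence in Dup, number of embryos and exact embryo age were not tested. Both buds were dissociated with trypsin and counted at transcript 3′ ends with unique molecular identifiers (UMIs).

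The stylopod is the proximal limb segment, which forms the femur in the hindlimb. The zeugopod (tibia and fibula) and the autopod (foot) follow distally. Limb cartilage begins when mesenchymal cells condense, turn on the transcription factor Sox9 and its partners Sox5 and Sox6, and lay down type II, IX and XI collagens and matrilins. The cells compared with the class were stylopod mesenchyme, the mesenchymal label of the same segment, and autopod chondrocyte progenitors, the equivalent label of the distal bud.

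Stylopod chondrocyte progenitors made up a smaller share of the Dup library. They were 128 of 4648 kept Dup cells, or 2.75% (2.30 to 3.27%, exact Clopper-Pearson), against 168 of 2249 wild-type cells, or 7.47% (6.42 to 8.64%). The ratio of shares was 0.369 (0.291 to 0.467). Among mesenchymal cells alone it was 0.363 (0.286 to 0.459), with shares of 3.01% in Dup and 8.30% in wild type. Stylopod mesenchyme was likewise a smaller share in Dup, 16.7% against 30.6% in wild type, a ratio of 0.546 (0.492 to 0.606). Autopod chondrocyte progenitors differed the other way, with 5.85% in Dup against 4.0% in wild type (ratio 1.46, 1.15 to 1.88). For every 100 stylopod mesenchyme cells there were 16.5 stylopod chondrocyte progenitors in Dup and 24.4 in wild type. For every 100 autopod chondrocyte progenitors there were 47.1 in Dup and 187 in wild type. With 1 library each, a difference in how proximally the buds were cut or in embryo age cannot be told apart from genotype.

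**Figure D1:**
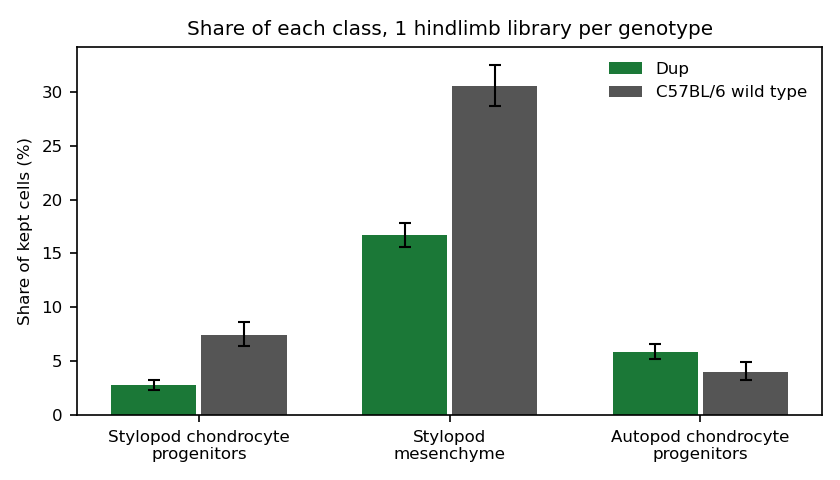
Share of kept cells (%) in stylopod chondrocyte progenitors, stylopod mesenchyme and autopod chondrocyte progenitors, in Dup (green) and C57BL/6 wild type (grey), with exact 95% binomial intervals. The class held 2.75% of Dup cells and 7.47% of wild-type cells, and its interval in Dup lay below that in wild type.

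The libraries differed in depth. The class held 840132 UMIs in Dup (median 5838 per cell) and 1305172 in wild type (median 7188). Shares of cells with a UMI were therefore also taken after thinning each cell to 4000 UMIs, which kept 127 Dup and 162 wild-type cells of the class. A total of 9 barcode sequences occurred in both libraries, 0 of them in the class. In the class, 2 Dup cells and 1 wild-type cell held over 3 times their library's median UMIs. Levels are UMIs summed over the cells of a class and library and scaled to counts per 1000000 UMIs of that sum (CPM), with exact Poisson intervals.

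The markers Sox9, Col2a1 and Col9a1 fitted the label, and Shox2 fitted the proximal position without setting the class apart from its mesenchyme. Sox9 (ENSMUSG00000000567, chr11:112643538-112649074, build NCBIM37), the master regulator of cartilage, had 1006 CPM (939 to 1076) in Dup and 1316 CPM (1254 to 1379) in wild type. That was 3.42 and 3.48 times stylopod mesenchyme, and 1.87 and 3.47 times autopod chondrocyte progenitors, in Dup and wild type. Col2a1 (ENSMUSG00000022483, chr15:97806033-97835155), the type II collagen chain, had 623 CPM in Dup and 775 CPM in wild type, 4.4 and 4.31 times its level in stylopod mesenchyme. Col9a1 (ENSMUSG00000026147, chr1:24184449-24259577), a type IX collagen chain, had 344 CPM in Dup and 316 CPM in wild type. For these markers the class ranked first of 13 classes in both libraries. Shox2 (ENSMUSG00000027833, chr3:66775649-66785693), a homeobox gene needed for proximal limb bones, had 383 CPM in Dup and 394 CPM in wild type. Its ratio to stylopod mesenchyme was 0.845 in Dup and 1.02 in wild type, and its highest level was in muscle connective tissue, 728 CPM in Dup and 592 CPM in wild type. Against autopod chondrocyte progenitors Shox2 was 14.8 and 6.67 times higher in Dup and wild type.

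The markers also met in single cells. At 4000 UMIs, 77.2% of Dup and 84.6% of wild-type cells of the class held UMIs of 3 or more of the 4 markers. The share was 27.4% in Dup and 34.8% in wild type for stylopod mesenchyme, and 19.6% and 24.1% for autopod chondrocyte progenitors. In muscle, immune (labelled lymphocytes) and endothelial cells, taken here as a rough gauge of background, it was 0.730% in Dup and 1.61% in wild type. Sox9 UMIs were found in 92.1% of Dup and 98.8% of wild-type cells of the class, against 8.76% and 9.14% of those background cells. Sox9 and Col2a1 were found together in 101 of 127 Dup cells and 150 of 162 wild-type cells, and 0 cells lacked both. Independent detection would give 102 and 150 cells with both.

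**Figure D2:**
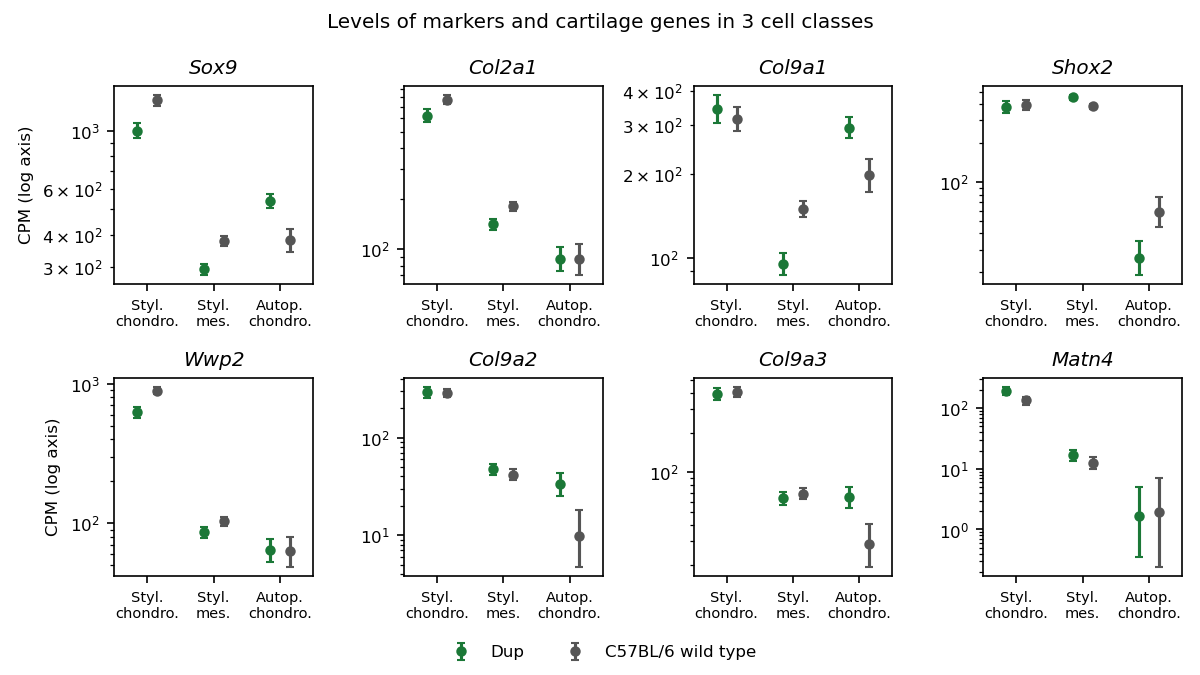
Levels in CPM (log axis) of 8 genes in stylopod chondrocyte progenitors, stylopod mesenchyme and autopod chondrocyte progenitors, with Dup in green left of wild type in grey and exact 95% Poisson intervals. Each gene but Shox2 lay highest in the class, while Shox2 lay at 383 and 394 CPM there and at 453 and 386 CPM in stylopod mesenchyme, in Dup and wild type.

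Among gene lists with more than 1 measured member, cartilage matrix genes stood highest above the mesenchyme by median ratio. A list of 23 matrix genes had 18 with a row, and 12 averaged at least 10 CPM across the sums being compared, the minimum for a gene to count as measured. All 12 of these were 2-fold or more above stylopod mesenchyme in both libraries, where 1.59% of 8243 measured genes were. Their median log2 ratio was 2.67 in Dup and 2.92 in wild type, against 0.06 and 0.01 over all measured genes. A gene could pass the minimum through its level in the class itself, and the clusters behind the labels were drawn on these same counts, so these figures describe the class and test nothing. Without the minimum, 14 of the 18 were higher in the class in both libraries and 2 were lower in both. The other 6 (Acan, Matn3, Hapln1, Comp, Fmod and Cilp2) were under the minimum.

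Among the other collagens, the type IX chains Col9a3 and Col9a2 and the type XI chains were above the mesenchyme. Col9a3 had 393 CPM in Dup and 406 CPM in wild type, which was 6.19 and 5.89 times stylopod mesenchyme. Col9a2 had 289 CPM in Dup and 287 CPM in wild type, 6.07 and 6.86 times. Col11a1, a chain of the type XI collagen that nucleates cartilage fibrils, had 230 CPM in Dup and 267 CPM in wild type, and was 3.23 and 3.35 times stylopod mesenchyme. Its partner Col11a2 (chr17:34176382-34203630) was scarce elsewhere. It was counted at 40 UMIs in Dup and 43 in wild type in the class (47.6 and 32.9 CPM), against 10 and 7 UMIs in stylopod mesenchyme, which was 24.1 and 29.5 times by CPM, and 0 and 2 UMIs in autopod chondrocyte progenitors. Against the floor of 3 counts in the Dup autopod cells, Col11a2 was at least 28.1-fold higher in the Dup class.

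Matrilins were scarce in stylopod mesenchyme and autopod chondrocyte progenitors. Matn4 (chr2:164215129-164230660), a matrix adaptor protein, had 190 CPM in Dup and 134 CPM in wild type, which was 11.3 and 10.8 times stylopod mesenchyme and 112 and 68.2 times autopod chondrocyte progenitors. Matn1 (chr4:130500300-130511390), the cartilage matrix protein, was counted at 42 UMIs in Dup and 24 in wild type, against 4 and 9 UMIs in the far larger sums of stylopod mesenchyme and 0 in both libraries in autopod chondrocyte progenitors. Lect1, which encodes chondromodulin, had 89.3 CPM in Dup and 143 CPM in wild type, 6.55 and 9.93 times stylopod mesenchyme and 158 and 72.5 times autopod chondrocyte progenitors, where it was counted at 1 and 2 UMIs. Papss2, which makes the sulphate donor for cartilage proteoglycans, had 44.0 CPM in Dup and 38.3 CPM in wild type, 18.6 and 11.4 times stylopod mesenchyme and 7.80 and 19.5 times the autopod cells. Acan, the aggrecan core protein of mature cartilage, was barely detected, with 7 UMIs in Dup and 6 in wild type, or 8.33 CPM (3.35 to 17.2) and 4.60 CPM (1.69 to 10.0). Hapln1, which links aggrecan to hyaluronan, was at 1 UMI in Dup and at 4 in wild type.

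Since the type IX collagen genes were high together, the 250 bases before their annotated starts are shown for the windows that held a SOX-type heptamer. The heptamers searched, on both strands, were AACAAAG or AACAATG, then ATCAAAG or ATCAATG, then TACAAAG or TACAATG, and then TTCAAAG or TTCAATG. Of the 12 matrix genes past 2-fold, 10 had windows in the RefSeq promoter table (build GRCm38.p6), 13 windows in all. Col2a1 and the type IX gene Col9a3 had no window and were not searched. A second Col9a1 window (chr1:24194953-24195202) held 0 heptamers. Of the 13 windows, 2 (15.4%) held a heptamer, against 21.8% of 32851 windows in the table. A match is given as a description of the letters only. Capitals mark the match, TTCAAAG at 186 bases before the Col9a1 start (chr1:24177360-24177609, plus strand) and ATCAAAG read on the minus strand at 178 bases before the Col9a2 start (chr4:121039316-121039565, plus strand).
Col9a1: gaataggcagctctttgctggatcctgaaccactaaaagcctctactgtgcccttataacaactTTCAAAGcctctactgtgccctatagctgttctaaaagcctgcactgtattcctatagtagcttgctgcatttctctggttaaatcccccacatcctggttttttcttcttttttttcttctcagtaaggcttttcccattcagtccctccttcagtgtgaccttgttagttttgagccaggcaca
Col9a2: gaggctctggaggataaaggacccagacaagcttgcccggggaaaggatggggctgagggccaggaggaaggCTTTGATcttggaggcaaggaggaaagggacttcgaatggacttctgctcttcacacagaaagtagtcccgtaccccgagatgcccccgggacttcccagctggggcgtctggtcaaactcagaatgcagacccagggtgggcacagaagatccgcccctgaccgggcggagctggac

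The gene furthest above the mesenchyme by the naming rule was Wwp2, an E3 ubiquitin ligase gene whose intron carries the cartilage microRNA gene Mir140. Wwp2 had 626 CPM (574 to 682) in Dup and 895 CPM (844 to 948) in wild type. It was 7.25 and 8.63 times stylopod mesenchyme, and 9.72 and 14.2 times autopod chondrocyte progenitors. In build NCBIM37, Wwp2 lies at chr8:109960298-110082494 and Mir140 at chr8:110075144-110075213 on the same strand, inside all 3 annotated Wwp2 transcripts and overlapping 0 of their exons. Counts of transcript 3′ ends do not measure the microRNA, so its level in these cells is not known from these data. Its 3p arm is shown because the host gene led the contrast, with the seed (bases 2 to 8) in capitals, from RefSeq (build GRCm38.p6, chr8:107551288-107551308).
mmu-miR-140-3p: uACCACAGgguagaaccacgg

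The partners of Sox9 were also above the mesenchyme. Sox5 had 156 CPM in Dup and 199 CPM in wild type, 4.53 and 4.12 times stylopod mesenchyme, and Sox6 had 161 CPM in Dup and 179 CPM in wild type, 5.61 and 6.94 times. Mef2c, a MADS-box factor of later cartilage maturation, had 175 CPM in Dup and 224 CPM in wild type, 5.00 and 7.73 times, but the class did not rank first for it among the 13 classes. Runx2, the bone and hypertrophy factor, was low, with 13 UMIs in Dup and 38 in wild type (15.5 and 29.1 CPM). Of 16 chondrogenic factors, 10 were measured, 6 were past 2-fold above stylopod mesenchyme in both libraries and 0 below, where 1.59% and 1.53% of measured genes were. Vcan, the versican proteoglycan of condensations, was found at 1941 CPM in Dup and 1821 CPM in wild type, 3.81 and 3.64 times stylopod mesenchyme, and had UMIs in all 128 Dup and 168 wild-type cells. Plagl1, an imprinted zinc-finger gene, was 4.96 and 6.96 times stylopod mesenchyme. Cell adhesion genes of condensation were less distinct: Cdh2 and Ncam1 were within 2-fold of stylopod mesenchyme, and of 10 measured list members Vcan alone was past it.

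Genes of mitosis were among those lower in the class. Of 15 measured G2/M genes, 12 were 2-fold or more below stylopod mesenchyme in both libraries, where 1.53% of measured genes were. Their median log2 ratio was -1.46 in Dup and -1.33 in wild type. Top2a, the topoisomerase of dividing cells, had 132 CPM in Dup and 160 CPM in wild type, against 444 and 472 CPM in stylopod mesenchyme. Birc5, Ube2c, Cks2 and 2810417H13Rik were also among the 10 lowest, and for each of them and Top2a the class ranked last of 13 classes in both libraries. S phase genes differed less, with 1 of 15 (Rrm2) past 2-fold lower. By the authors' phase calls 89.8% of Dup and 89.3% of wild-type cells of the class were in G1, against 57.6% and 57.4% of stylopod mesenchyme. In autopod chondrocyte progenitors the calls were 76.5% G1 in Dup and 48.9% in wild type. Phase calls rest on few UMIs per cell, and a call of G1 does not separate resting cells from cycling cells with few phase transcripts.

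Ptn, the growth factor pleiotrophin, led the lower genes with 698 CPM in Dup and 823 CPM in wild type, against 1890 and 2742 CPM in stylopod mesenchyme. Cdo1, a cysteine dioxygenase, was 0.158 and 0.187 times stylopod mesenchyme, and Meox2, a homeobox gene needed for limb muscle, 0.281 and 0.162 times. Scx, the tendon progenitor factor, was 0.431 and 0.408 times, and Isl1, an early hindlimb factor, was counted at 6 UMIs in Dup and 9 in wild type against 224 and 294 UMIs in stylopod mesenchyme. The other hindlimb genes stayed close to the mesenchyme: Pitx1 had 377 CPM in Dup and 284 CPM in wild type, and Tbx4 89.3 and 73.6 CPM, the highest of any class for Tbx4.

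**Figure D3:**
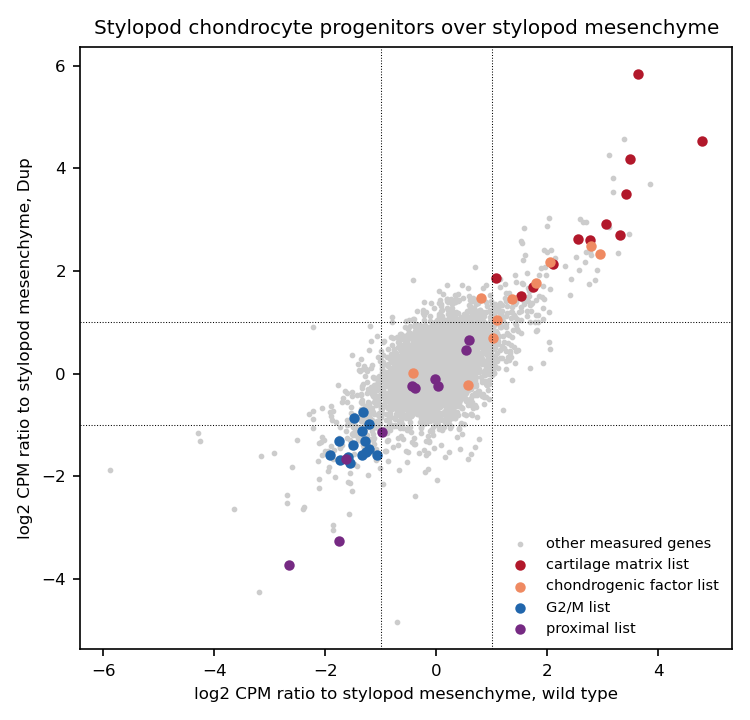
Log2 CPM ratio of stylopod chondrocyte progenitors to stylopod mesenchyme in wild type (x axis) and in Dup (y axis), 1 point per measured gene (8243 genes), with 4 gene lists coloured and dotted lines at 2-fold. The 12 cartilage matrix genes lie beyond 2-fold at the upper right and 12 of 15 G2/M genes beyond it at the lower left.

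The class kept some proximal genes and had less of others. Meis2, a homeobox gene that marks the proximal limb, had 89.3 CPM (70.2 to 112) in Dup and 146 CPM (126 to 169) in wild type. That was 0.314 and 0.322 times stylopod mesenchyme but 9.30 and 3.82 times autopod chondrocyte progenitors. Irx3, another proximal homeobox gene, was counted at 6 UMIs in Dup and 46 in wild type, 0.0969 and 0.294 times stylopod mesenchyme. Of 10 measured proximal genes, 3 (Meis2, Irx3 and Irx5) were 2-fold below stylopod mesenchyme in both libraries, against 1.53% of measured genes. Hoxd9 was within 2-fold, at 1.36 times in Dup and 1.44 times in wild type. Of 6 measured zeugopod Hox genes, Hoxc11 was 2-fold below stylopod mesenchyme in both libraries and 0 were above. Hoxa10 had 218 CPM in Dup and 302 CPM in wild type, against 305 and 339 CPM in zeugopod mesenchyme. Hoxc10 had 139 CPM in Dup and 156 CPM in wild type, above the 71.5 and 106 CPM of zeugopod mesenchyme. Hoxa11, which is needed for the zeugopod bones, had 59.5 CPM in Dup and 35.2 CPM in wild type, against 125 and 177 CPM in zeugopod mesenchyme. Hoxa13, the autopod Hox gene, was counted at 18 UMIs in Dup and 7 in wild type in the class (21.4 and 5.36 CPM), against 262 and 227 CPM in autopod chondrocyte progenitors.

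Against autopod chondrocyte progenitors, 3.02% of 8256 measured genes were 2-fold higher in the class in both libraries and 1.13% were lower. The position genes Hoxa13, Hoxd13, Hoxd12 and Hoxd11 were among the 10 lowest in the class. Jag1, a Notch ligand, had the lowest ratios of the other 6, with 4 UMIs in Dup and 10 in wild type against 288 and 180 UMIs in the autopod cells. Wnt5a, which directs distal outgrowth, was 0.410 and 0.338 times its autopod level, and Prrx2, Tmem119, Ifitm1 and Stmn2 were also lower. Of 14 distal genes, 10 were measured and 8 were 2-fold lower in both libraries, while of 9 measured proximal genes 8 were higher, with a median log2 ratio of 2.08 in Dup and 2.04 in wild type (Irx3, at 0 UMIs in the Dup autopod cells, counted at its bound).

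The stylopod and autopod chondrocyte progenitors also differed in cartilage genes. Of 12 measured matrix genes, 11 were 2-fold higher in the stylopod class in both libraries, where 3.02% of 8256 measured genes were. Col9a1 was not, at 1.17 and 1.59 times in Dup and wild type. Here too a gene could pass the minimum through its level in the class itself, and the labels came from these same counts. These figures therefore describe the labels and test nothing. Without the minimum, 13 of the 18 with a row were higher in the class in both libraries and 1 was lower in both. Col9a2 was 8.68 times higher in Dup and 29.1 times in wild type, and Sox9 only 1.87 and 3.47 times. Itm2a, a membrane protein gene of early chondrogenesis, led the list with 721 CPM in Dup and 1020 CPM in wild type, against 71.7 and 83.6 CPM in the autopod cells. Tbx18, a T-box transcription factor gene, had 218 CPM in Dup and 287 CPM in wild type, 18.4 and 15.3 times the autopod level. Fibin, a secreted factor gene, was 8.40 and 26.0 times higher. The autopod cells held 272 cells in Dup and 90 in wild type, and their G2/M levels also differed between the libraries, with 14 of 15 genes past 1.5-fold lower in Dup, where 8.97% of 8058 measured genes were. How far this moved the ratios in each library was not tested.

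**Figure D4:**
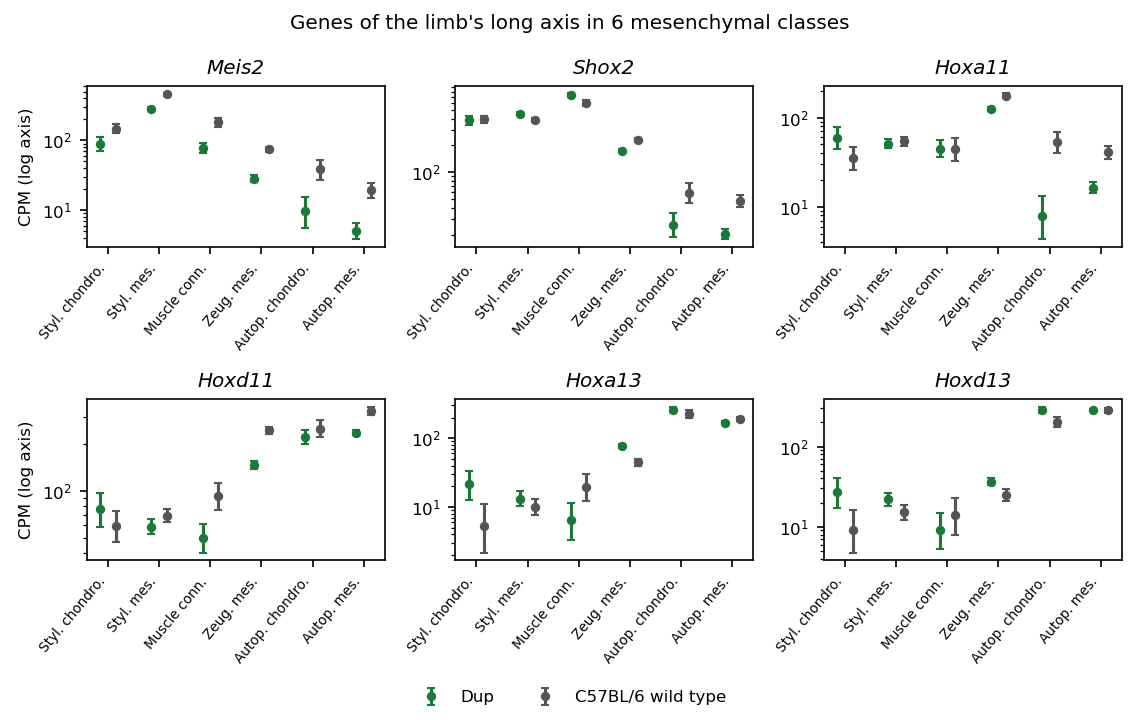
Levels in CPM (log axis) of proximal genes (Meis2, Shox2), zeugopod Hox genes (Hoxa11, Hoxd11) and autopod Hox genes (Hoxa13, Hoxd13) in 6 mesenchymal classes, with Dup in green left of wild type in grey and exact 95% Poisson intervals. The class has Shox2 close to stylopod mesenchyme, Meis2 below it, and Hoxa13 and Hoxd13 far below the autopod classes.

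Signalling genes of cartilage were read by pathway. Among BMP genes, which drive condensation and joint formation, Gdf5, Bmpr1b and Nog were past 2-fold above stylopod mesenchyme in both libraries, of 14 measured, and 0 were below, against 1.59% and 1.53% of measured genes. Nog, the BMP antagonist made by cartilage, was counted at 25 UMIs in Dup and 29 in wild type (29.8 and 22.2 CPM), against 1.19 and 2.07 CPM in stylopod mesenchyme. Gdf5, a ligand of joint interzones, had 85.7 CPM in Dup and 49.0 CPM in wild type, 3.8 and 2.67 times stylopod mesenchyme. Among FGF genes, the receptors Fgfr2 and Fgfr3 were past 2-fold above, of 9 measured and against the same 1.59%, and Fgfr1 was level at 1.13 and 1.03 times. Fgfr3, the receptor that restrains cartilage growth, was counted at 18 UMIs in Dup and 45 in wild type. Of 8 measured Wnt genes, the secreted antagonists Sfrp1 and Sfrp2 were past 2-fold above, again against 1.59%. Sfrp2 had 1033 CPM in Dup and 1157 CPM in wild type, against 384 and 331 CPM in stylopod mesenchyme. None of 7 measured hedgehog genes was past 2-fold in both libraries, and Ihh, the ligand of maturing cartilage, was under the minimum.

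Within the class, cartilage transcripts varied from cell to cell. At 4000 UMIs per cell the matrix list summed to 0 to 40 UMIs in Dup (median 7) and 0 to 44 in wild type (median 10), against medians of 1 and 2 in stylopod mesenchyme. Only 1 Dup and 3 wild-type cells of the class had 0. Matn4 was found in 54 of 127 Dup and 59 of 162 wild-type cells and Gdf5 in 31 and 28, and both in 10 Dup and 9 wild-type cells. Independent detection would give 13.2 and 10.2 cells, so the counts give no sign at this depth that cells with the matrilin held the joint ligand more often. Matn4 and Lect1 met in 16 Dup and 33 wild-type cells, against 14.0 and 24.4 from the product of their shares. In the authors' finer clustering, cluster 8 held 110 of the Dup and 165 of the wild-type cells. The other 18 Dup and 3 wild-type cells lay in 4 other finer clusters. Those 18 Dup cells had 946 CPM of Sox9 and 417 CPM of Col2a1, against 1018 and 665 CPM in the 110 Dup cells of cluster 8.

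The genes inside the duplication came first in the comparison of genotypes, since they check the labels. In the class Btrc, an F-box subunit of a ubiquitin ligase, had 45.2 CPM (32.0 to 62.1) in Dup and 26.8 CPM (18.7 to 37.3) in wild type. Poll, a DNA polymerase gene, had 17.9 CPM in Dup and 7.66 CPM in wild type. Dpcd had 106 CPM in Dup and 46.7 CPM in wild type, and Fbxw4, another F-box gene, 15.5 CPM in Dup and 9.19 CPM in wild type. Summed over these genes, the ratio of Dup to wild type was 2.04 (1.60 to 2.62) in the class, 2.08 (1.89 to 2.29) in stylopod mesenchyme and 2.29 (1.83 to 2.89) in autopod chondrocyte progenitors. The ends of Dpcd (chr19:45635105-45652769) and Fbxw4 (chr19:45652744-45734802) overlap on opposite strands in build NCBIM37, so reads there could be split either way. Lbx1, a muscle precursor factor, had 3 UMIs in each library, with all 3 Dup UMIs in 1 cell. Fgf8 outside the duplication had 0 UMIs in Dup, which allows up to 3.57 CPM, and 5 UMIs in wild type.

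**Figure D5:**
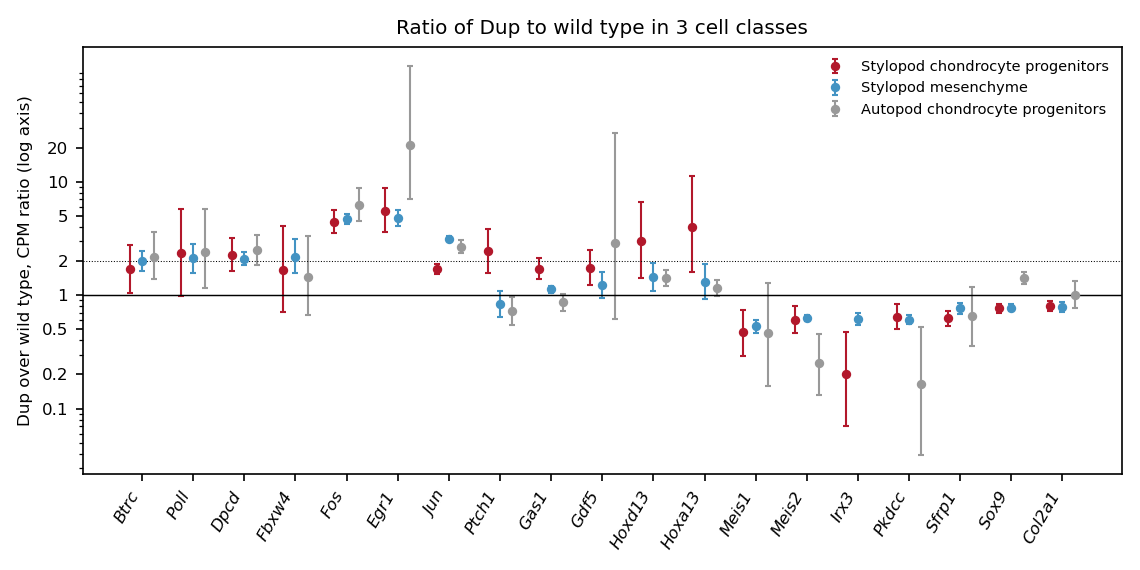
CPM ratio of Dup to wild type (log axis) for 19 genes in stylopod chondrocyte progenitors (red), stylopod mesenchyme (blue) and autopod chondrocyte progenitors (grey), with exact 95% conditional binomial intervals and a dotted line at 2. Genes with 0 UMIs in a library are not drawn there. The duplicated genes lie near 2 in each class, Ptch1 lies at 2.44 in the class and below 1 in the others, and the Hoxd13 point of the class rests on 16 UMIs of 1 cell.

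Cartilage matrix genes were within 1.5-fold between genotypes about as often as all measured genes. Past 1.5-fold in the class, 8.42% of 8286 measured genes were higher in Dup and 7.12% were lower, and at 50 or more CPM, where counting error is smaller, 2.08% and 1.47% of 3273 genes were. Of 12 measured matrix genes, 10 were within 1.5-fold, as were 6998 of the 8286 genes. Their median log2 ratio was 0.00, against 0.04 over all genes. The exceptions were Matn1, with 49.99 CPM (36.03 to 67.6) in Dup and 18.4 CPM (11.8 to 27.4) in wild type, and Lect1, with 89.3 CPM (70.2 to 112) in Dup and 143 CPM (123 to 165) in wild type. Sox9 was 0.765 times wild type (0.703 to 0.831) and Col2a1 0.803 times (0.721 to 0.893), within 1.5-fold but with intervals off 1, and both ratios were alike in stylopod mesenchyme, at 0.778 and 0.785. In autopod chondrocyte progenitors Sox9 was 1.42 times wild type (1.26 to 1.60). Wwp2 was 0.700 times wild type (0.630 to 0.776) in the class. Of 11 measured chondrogenic factors, 2 were past 1.5-fold lower and 0 higher, against 7.12% and 8.42% of measured genes. These were Runx2, at 0.531 times wild type (0.260 to 1.02) and 0.562 times in stylopod mesenchyme, and Barx2, with 5 UMIs in Dup and 27 in wild type (0.288, 0.0865 to 0.758). Of 10 hypertrophy and bone genes, 5 had a row, and Ihh, Sp7 and Alpl were under the minimum. The 2 measured were past 1.5-fold higher, against 8.42% of measured genes, with intervals that reached 1. Pth1r, the receptor that delays hypertrophy, had 48.8 CPM in Dup and 32.2 CPM in wild type (1.52, 0.962 to 2.39). Spp1, the bone matrix protein osteopontin, had 27.4 CPM in Dup and 15.3 CPM in wild type (1.79, 0.938 to 3.43), and 10 of its 23 Dup UMIs were in 1 cell. Without the top cell of each library its ratio was 1.35 (0.590 to 3.04), within 1.5-fold.

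Several proximal genes were lower in Dup, in the class and in other mesenchymal classes. Of 9 measured proximal genes, 4 (Meis1, Meis2, Irx3 and Pkdcc) were past 1.5-fold lower in Dup and 0 higher, against 7.12% and 8.42% of measured genes, with a median log2 ratio of -0.51. Meis1 had 30.9 CPM in Dup and 65.9 CPM in wild type (ratio 0.470, 0.291 to 0.736), and Meis2 had a ratio of 0.610 (0.461 to 0.801). Irx3 was lowest, with 6 UMIs in 5 Dup cells and 46 UMIs in 20 wild-type cells (ratio 0.203, 0.0707 to 0.476). In stylopod mesenchyme 5 of 10 measured proximal genes were past 1.5-fold lower in Dup, where 1.17% of all measured genes were, with Meis1 at 0.532, Meis2 at 0.625 and Pkdcc at 0.607. In autopod chondrocyte progenitors 3 of 6 measured were past 1.5-fold lower and 0 higher, against 8.97% and 7.11% of measured genes. Meis1 and Meis2 were lower in Dup in each of the 6 mesenchymal classes. Meis2 had 28.3 CPM in Dup and 73.9 CPM in wild type in zeugopod mesenchyme. It had 9.60 and 38.4 CPM in autopod chondrocyte progenitors. Shox2 was level in the class, at 0.973 (0.844 to 1.12).

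Of 8 measured distal genes, 4 (Hoxa13, Hoxd12, Hoxd13 and Lhx2) were past 1.5-fold higher in Dup, all at low counts, against 8.42% of measured genes. Hoxa13 had 18 UMIs in 13 Dup cells and 7 UMIs in 7 wild-type cells (ratio 3.99, 1.59 to 11.3). The Hoxd13 excess came from a single cell: it held 16 of the 23 Dup UMIs, and without the top cell of each library the levels were 8.50 CPM in Dup and 8.52 CPM in wild type. For Hoxd12 and Lhx2 the intervals reached 1. Without the top cell of each library the Hoxa13 ratio was 4.02 (1.47 to 12.7). At 4000 UMIs Hoxa13 was found in 5.51% of Dup and 1.85% of wild-type cells of the class. In muscle, immune and endothelial cells the shares were 9.85% and 4.30%. Whether free RNA gave the Hoxa13 UMIs of the class was not tested.

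Hedgehog target genes were higher in the Dup class, with ratios nearer to or below 1 in stylopod mesenchyme. Ptch1, the receptor and target of hedgehog signalling, had 55 UMIs in 34 Dup cells and 35 UMIs in 28 wild-type cells, or 65.5 CPM (49.3 to 85.2) in Dup and 26.8 CPM (18.7 to 37.3) in wild type, a ratio of 2.44 (1.57 to 3.84). In stylopod mesenchyme the ratio was 0.840 (0.646 to 1.09), and in autopod chondrocyte progenitors 0.719 (0.541 to 0.958). Gli1, the other direct target, had 13 UMIs in 11 Dup cells and 2 UMIs in 2 wild-type cells of the class, a ratio of 10.1 (2.29 to 92.2). Gas1, a hedgehog co-receptor, had 240 CPM in Dup and 140 CPM in wild type (ratio 1.71, 1.40 to 2.11), against a ratio of 1.13 in stylopod mesenchyme. Of the 7 measured members Gas1 and Ptch1 were past 1.5-fold higher, against 8.42% of measured genes, and the other 5, such as Gli3 at 1.15, were not. Gdf5 was 1.75 times wild type (1.23 to 2.49), and Enpp2, a lysophospholipase gene of joint and condensation cells, 0.608 times (0.402 to 0.903). Sfrp1 was among the 10 lowest genes, with 270 CPM in Dup and 432 CPM in wild type (ratio 0.625, 0.534 to 0.731).

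The genes highest in Dup by the naming rule were mostly immediate early genes, and these were higher in Dup in the other classes too. Fos had 354 CPM (314 to 396) in Dup and 79.7 CPM (65.1 to 96.5) in wild type, a ratio of 4.44, or 1.97 over cells with more than 3000 detected genes. Its ratio was 4.69 in stylopod mesenchyme and 6.21 in autopod chondrocyte progenitors. Klf2, Egr1, Cyr61, Rhob, Ier2 and Jun were also among the 10 highest, with ratios of 7.82, 5.55, 3.44, 4.19, 2.07 and 1.70 in the class. Of 11 measured genes of a list of dissociation response genes, 8 were past 1.5-fold higher in the Dup class and 0 lower. Over all measured genes of the class, 8.42% were higher and 7.12% lower. In stylopod mesenchyme 9 of 11 were higher, against 1.1% of all measured genes there. In autopod chondrocyte progenitors 6 of 11 were higher, against 7.11%. The list summed to 3945 CPM in Dup and 2602 CPM in wild type in the class. Such genes respond to handling and to signals, and their part in the other differences was not tested.

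The remaining 3 of the 10 highest were less alike between classes. Ebf1, a transcription factor of several mesenchymal lineages, had 548 CPM in Dup and 265 CPM in wild type (ratio 2.07), against ratios of 1.44 in stylopod mesenchyme and 1.38 in autopod chondrocyte progenitors. Foxp2, a forkhead factor, had 173 CPM in Dup and 81.2 CPM in wild type, a ratio of 2.13 (1.64 to 2.76), 1.12 in stylopod mesenchyme and 0.646 (0.311 to 1.35) in autopod chondrocyte progenitors. Bcl2, an inhibitor of apoptosis, had 65 UMIs in 43 Dup cells and 39 UMIs in 34 wild-type cells, a ratio of 2.59 (1.71 to 3.96), 1.14 in stylopod mesenchyme and 1.45 (1.03 to 2.08) in autopod chondrocyte progenitors.

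Among the 10 lowest, Fam181b also stood above the mesenchyme in the class. Fam181b had 143 CPM (118 to 171) in Dup and 290 CPM (261 to 320) in wild type, a ratio of 0.493. Tcf7l2, a transcription factor of Wnt signalling, had 423 CPM in Dup and 694 CPM in wild type, a ratio of 0.609, against 0.809 in stylopod mesenchyme. Bpgm, a glycolytic mutase gene, and Upf2, of nonsense-mediated decay, had ratios of 0.497 and 0.515, and Eif3j 0.560. The ribosomal genes Rps29 and Rps28 and the predicted gene Gm10076 were lower in each of the 3 classes, at 0.600, 0.619 and 0.572 in the class. These 3 are uncertain, since ribosomal protein genes have near-identical copies to which reads can be assigned.

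Markers of other cell types were read as lists. Endothelial genes summed to 4.76 CPM in Dup and 3.83 CPM in wild type over 7 genes, with 3 and 4 of them at 0, and immune genes to 1.19 and 8.43 CPM over 7, with 6 and 4 at 0. Muscle genes summed to 76.2 CPM in Dup and 88.1 CPM in wild type over 10, with 4 and 1 of them at 0, and of the defining genes Pax3 had 0 and 2 UMIs and Myog 1 and 4. Globin genes summed to 3174.5 CPM in Dup and 4279 CPM in wild type, a ratio of 0.742, close to the 0.731 of stylopod mesenchyme. Tendon and connective tissue genes, which limb mesenchyme also expresses, summed to 1309 CPM in Dup and 1196 CPM in wild type. Ectoderm genes summed to 63.1 CPM in Dup and 48.3 CPM in wild type over 10, with 1 and 2 at 0. Of these Epcam, an epithelial adhesion gene, had 15 UMIs in 8 Dup cells, 6 of them in 1 cell, against 9 UMIs in 8 wild-type cells (ratio 2.59, 1.06 to 6.71). At 4000 UMIs Epcam was found in 3.94% of Dup and 1.23% of wild-type cells, below the 4.01% and 2.69% of muscle, immune and endothelial cells. From the neural crest list Erbb3, a neuregulin receptor, stood 20.5 and 8.78 times above stylopod mesenchyme, with 17 UMIs in 14 Dup cells and 53 UMIs in 40 wild-type cells. Of the defining crest genes Foxd3 had 0 and 2 UMIs in the Dup and wild-type class, and Sox10, a relative of Sox9, had 6 and 15. At 4000 UMIs Erbb3 was found in 8.66% of Dup and 15.4% of wild-type cells of the class, against 5.47% and 5.38% of muscle, immune and endothelial cells. Erbb3 met Sox9 in 10 of 11 Dup cells and 25 of 25 wild-type cells that held it. Independent detection would give 10.1 and 24.7 cells, since nearly all cells of the class held Sox9.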

How the data were processed

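Single-cell RNA-seq was analysed from 2 E11.5 hindlimb libraries, 1 per genotype (Dup and C57BL/6 wild type, from the labels). The authors deposited UMI counts for each gene in each cell, without normalisation. Per their methods and processing notes these came from Cell Ranger 3, with reads mapped to mm9, and mm10 is named in the notes as well. The authors filtered cells on genes, mitochondrial share and doublet score, integrated the libraries, clustered them and named the classes. Their class, finer cluster and phase columns were used as deposited, and 12 other metadata columns were not. The matrix held 6944 cells and 15668 genes, of which 14536 had a symbol of their own. It had 0 mitochondrial rows, and no doublet caller was run beyond the authors' step. The lowest number of detected genes was 1989, and cells with 2000 or fewer were left out (43 in Dup, 3 of them in the class, and 4 in wild type). The class then held 840132 UMIs in Dup and 1305172 in wild type.

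UMIs were summed per class and library and scaled to CPM. Sums have exact Poisson, shares exact Clopper-Pearson and ratios exact conditional binomial intervals (95%, counting error only). A count of 0 was read as up to 3 counts. Genes averaging at least 10 CPM across the sums being compared were measured. Contrasts of classes called genes 2-fold apart in both libraries, and contrasts of genotypes 1.5-fold. Medians of lists used log2 ratios with 0.5 counts added, except where a gene at 0 was set to its bound. Among genes averaging at least 50 CPM, those named had the 10 highest and the 10 lowest log2 ratios (50 CPM added to each level), leaving out locus, globin, Xist and Y-linked genes. For classes they had to share a sign in both libraries and were ordered by the smaller ratio. Members of 25 lists (271 genes, 256 with a row) and locus genes could also be named. Some genes that this rule allows are not reported here. The members and lists were chosen with earlier results of these data known. Functions were tested on simulated data. Python 3.11, numpy 2.4.6, scipy 1.17.1 and pandas 2.3.3 were used. Coordinates of genes are from the NCBIM37 annotation, the assembly behind mm9. The gene annotation and strand setting used for counting are not given in the sources used here. The G4 and Inv1 libraries carry a coarser annotation without this class and were not analysed here.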

Additional observations from a re-analysis of the deposited data

Results flagged for a closer look

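The following genes differed between Dup and wild type in opposite directions in stylopod chondrocyte progenitors and in another class, with both counting intervals off 1. With 1 library per genotype the difference between classes was not tested. Ptch1 was 2.44 times wild type in the class and 0.719 times (0.541 to 0.958) in autopod chondrocyte progenitors. Hoxa11 was 1.69 times wild type (1.11 to 2.58) in the class, with 50 UMIs in Dup and 46 in wild type, and 0.149 times (0.0764 to 0.272) in autopod chondrocyte progenitors, with 14 and 54 UMIs. Prrx1, a homeobox gene of limb mesenchyme, was 1.65 times (1.46 to 1.86) in the class and 0.648 times (0.555 to 0.757) in autopod chondrocyte progenitors. Meox2 was 2.03 times (1.14 to 3.65) in the class, on 30 UMIs in Dup and 23 in wild type, and 0.423 times (0.196 to 0.890) in autopod chondrocyte progenitors. Without the cell richest in Meox2 in each library, a choice made after seeing the data, the ratio in the class was 1.79 (0.957 to 3.39). Rspo3, a secreted enhancer of Wnt signalling, was 1.68 times (1.05 to 2.68) in the class and 0.771 times (0.663 to 0.895) in stylopod mesenchyme. The wild-type autopod cells were 90, and 14 of 15 G2/M genes were past 1.5-fold lower in the Dup cells of that class.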

How the results depend on the processing

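No paired analysis was possible because each genotype was 1 library, so no library could be left out either. Counts of genes moved with the minimum level. Without a minimum, 2448 genes were past 2-fold against stylopod mesenchyme (833 higher, 1615 lower), 2703 against autopod chondrocyte progenitors (1584 and 1119) and 5568 past 1.5-fold between genotypes (2817 and 2751), with 113 list members. At 50 or more CPM these were 84 (40 and 44), 96 (74 and 22) and 116 (68 and 48), with 14 list members, against 257 (131 and 126), 342 (249 and 93) and 1288 (698 and 590), with 45 list members, at 10 or more CPM. With more than 3000 detected genes, which leaves fewer cells, 2911 genes (1731 and 1180) and 76 list members were past 1.5-fold between genotypes. There the Dup over wild type ratios were 1.97 for Fos, 3.41 for Egr1, 5.12 for Klf2 and 0.212 for Upf2, and against autopod chondrocyte progenitors, in the library nearer to 1, Itm2a was at 3.91 (6.34 over all cells), Fibin at 2.76 (4.21), Hoxa13 at 0.366 (0.229) and Hoxd13 at 0.383 (0.234). Thinned to 4000 UMIs, these were 1942 (982 higher, 960 lower), and 150 genes were lower than in autopod chondrocyte progenitors. The share ratio stayed between 0.323 and 0.412 and the duplicated genes' ratio between 1.99 and 2.21 in the alternatives run. Median-of-ratios scaling, the mean over cells and the main finer cluster alone, the last chosen after seeing the data, moved no count by over 1.5 times, and no named gene changed direction. With a pseudocount of 10 CPM, 15, 14 and 15 of the 20 genes named for the 3 contrasts remained. Without the cell richest in each gene, also chosen after seeing the data, the Hoxd13 ratio was 0.998, against 2.98 with it, and Gli1 was 17.3 (2.51 to 743). With 840132 UMIs in Dup, genes of few UMIs are known only within wide intervals.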
